A study of Rattus norvegicus with 18 samples.

Results

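Plet1, Slc26a4 and Ly6al were followed in rat lung across the steps from sham to 300 and from 300 to 600 µg per litre of cigarette smoke, counted as total particulate matter (TPM). They were taken as the probe sets that the platform annotation assigns to one of these symbols alone, which gave 5 of the 31256 probe sets on the arrays, for 3 of the 13811 genes named by a single symbol. Plet1 had 3 probe sets, 1374594_at on array type A and 1395887_at and 1397729_x_at on array type B. Slc26a4 had 1 (1368193_at, type A) and Ly6al had 1 (1378690_at, type B), so agreement between the array types could be examined for Plet1 alone. The genes were chosen by their differences between exposures in these same arrays, so every exposure value of theirs is a description and carries no p-value.

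Lung tissue came from male Sprague-Dawley rats that breathed through the nose only for 2 h a day, 5 days a week, over 13 weeks. They received sham exposure or mainstream smoke of the reference cigarette 2R4F at 300 or 600 µg TPM/l, and were dissected after 2, 6 or 20 h of recovery from the final session. The 18 samples were 9 conditions (3 exposures by 3 recovery times) on each of 2 Affymetrix types that carry largely different probe sets, with 1 array per condition and type, and neither the number of animals behind an array nor their age is given in the labels. In whole lung, fewer cells of a type and less RNA per cell cannot be told apart.

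Signals are linear intensities made by the authors with MAS5, which averages the short probes of a probe set into 1 value. Every array had been brought to a trimmed mean near 500.09, and changes below are differences of log2(signal + 50), which makes the fold of a dim probe set smaller than its raw ratio. A signal had to reach 183.8 on type A or 238.7 on type B in at least 3 of 9 arrays to be tested. All 5 probe sets did, but Slc26a4 did so only through the smoke arrays, with 0 of 3 sham arrays at that level. On type B the array labelled sham at 2 h stood apart. Its deviations correlated with those of the 300 µg TPM/l array at 2 h (r = 0.56). The other 35 pairs of type B arrays had at most 0.12, and the same labels on type A had -0.16. The type B dose steps, recovery tests and correlations of the 3 genes are therefore given with and without it. One label of the 4 smoke samples at 20 h reads sham, against their titles and source names, and the titles were followed. Alveolar type 2 markers (10 of 10) and type 1 markers (8 of 8 on the arrays) passed the filter.

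PLET1 is a surface protein held in the membrane by a glycosylphosphatidylinositol (GPI) anchor. It marks progenitor-like epithelial cells in several tissues and is also made by some tissue macrophages and dendritic cells. SLC26A4, or pendrin, is an apical exchanger that moves chloride, iodide, bicarbonate and thiocyanate in thyroid, inner ear and kidney, and airway epithelium makes it under IL-13 and IL-17 signalling. Ly6al belongs by name to the LY6 family of small, disulphide-rich surface proteins, many of them GPI-anchored, that are used as markers of leukocytes and epithelial progenitors.

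Promoter windows of Plet1 and Slc26a4, the 2 of 3 genes that the RefSeq table used here (GRCr8) matched, are shown with the motif matches found in them. Each has 300 bases, from 250 before to 50 after the annotated start, and that of Ly6al was not analysed here. That of Plet1 lies at chr8:59738389-59738688 on the plus strand and that of Slc26a4 at chr6:53873167-53873466 on the minus strand, both written 5′ to 3′ with matches in capitals.
Plet1: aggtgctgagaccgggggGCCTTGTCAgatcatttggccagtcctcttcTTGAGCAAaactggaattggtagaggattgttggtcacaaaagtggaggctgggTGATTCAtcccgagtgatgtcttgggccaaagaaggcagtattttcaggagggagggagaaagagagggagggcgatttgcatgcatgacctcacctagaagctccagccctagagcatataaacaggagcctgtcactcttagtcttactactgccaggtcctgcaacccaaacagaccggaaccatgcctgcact
Slc26a4: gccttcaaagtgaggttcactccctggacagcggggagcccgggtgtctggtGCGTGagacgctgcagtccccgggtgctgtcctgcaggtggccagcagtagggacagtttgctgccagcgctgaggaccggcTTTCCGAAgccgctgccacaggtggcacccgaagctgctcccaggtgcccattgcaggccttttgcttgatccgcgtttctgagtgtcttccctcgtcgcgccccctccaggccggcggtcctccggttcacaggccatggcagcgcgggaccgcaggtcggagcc
Both strands were searched for the aryl hydrocarbon receptor core GCGTG, AP-1 (TGANTCA), the antioxidant element (TGACNNNGC), STAT sites (TTCNNNGAA, also with 1 more base in the gap), C/EBP (TTNNGNAA) and the NF-kB consensus. The Plet1 window held an antioxidant element on the minus strand (GCCTTGTCA, found in 12.1% of 33469 windows of this length), a C/EBP match (TTGAGCAA, 41.3%) and an AP-1 match (TGATTCA, 7.33%). The Slc26a4 window held 1 GCGTG (29.7%) and a C/EBP match on the minus strand (TTTCCGAA). Neither held a STAT or NF-kB match, present in 8.87%, 7.28% and 7.51% of windows. A match says only that these letters are present in the window.

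Plet1 was higher at each smoke level on type A, with the 3 exposures fully separated. In sham lungs 1374594_at gave 1080.8 at 2 h, 739.7 at 6 h and 1033.7 at 20 h. At 300 µg TPM/l it gave 2076.9, 1685.7 and 1765.7 at the same times, and at 600 µg TPM/l 2647.3, 2636.9 and 3329.2. The highest array of each exposure lay below the lowest of the next. Both steps were upward at all 3 times, which held for 1.74% of the probe sets tested on type A. The first step, sham to 300, was 0.93 ± 0.20 on the log2 scale (SD over 3 recovery times, 1.91-fold), and the second, 300 to 600, was 0.62 ± 0.28 (1.54-fold). Together they made 1.55 ± 0.27 (2.94-fold).

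The order of the Plet1 steps was not the same at every time. The first was larger at 2 h (0.91 against 0.34) and at 6 h (1.14 against 0.63), and the second at 20 h (0.90 against 0.74). The mean difference of first minus second step was 0.31 with a standard error of 0.20 from the model across recovery times, and its SD over times was 0.40. It ran from 0.16 without 600 µg TPM/l at 2 h to 0.54 without 300 µg TPM/l at 20 h. The data on type A thus show steps whose difference was smaller than its spread over recovery times.

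On type B, both Plet1 probe sets were higher with smoke at 6 and 20 h and differed little at 2 h. For 1395887_at, signals in the order sham, 300 and 600 µg TPM/l were 2201.9, 2136.3 and 2517 at 2 h. They were 1067.4, 1943.7 and 2448.3 at 6 h, and 967.8, 2250.2 and 2703.2 at 20 h. The sham array at 2 h was brighter than the other sham arrays and lay among the 300 arrays, while all 600 arrays were above every other array.

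For 1397729_x_at, the corresponding signals were 4351, 4420.8 and 4359.8 at 2 h. They were 1840.3, 3993 and 4835.2 at 6 h, and 1535.8, 3086 and 5945.5 at 20 h. Here the sham array at 2 h lay above 2 of the 3 arrays at 300 µg TPM/l, and the 600 array at 2 h lay below the 300 array at 2 h. Both type B probe sets were designed from the same source sequence, and the x in the name of 1397729_x_at marks probes that may also match other transcripts.

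The mean first step on type B was 0.66 ± 0.63 (SD over 3 times) for 1395887_at and 0.70 ± 0.59 for 1397729_x_at. Without the sham array at 2 h these were 1.02 and 1.14, against 0.93 on type A. The second step, which uses no sham array, was 0.27 ± 0.05 for 1395887_at and 0.40 ± 0.49 for 1397729_x_at. With 1 condition left out these ran from 0.11 to 0.47 and from 0.06 to 0.77, the first lowest without 300 at 2 h, the second lowest without 600 at 20 h, and both highest without 600 at 2 h. First minus second step was 0.38 (SE 0.37) and 0.31 (SE 0.48) with all arrays and 0.74 (SE 0.21) and 0.75 (SE 0.30) without that array. With all arrays the type B differences were thus close to or below their standard errors, and leaving out the condition 600 µg TPM/l at 2 h turned that of 1397729_x_at to -0.07.

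**Figure D1:**
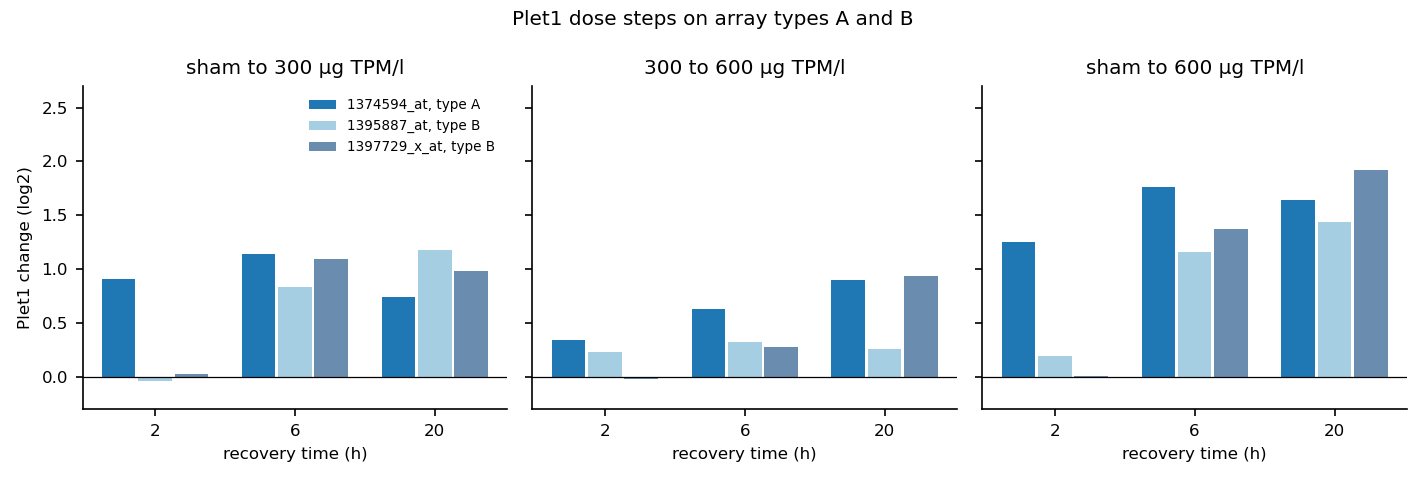
Change of Plet1 on the log2(signal + 50) scale for each dose step and for both together, by recovery time, with 1 bar per probe set and 1 array behind each level. At 6 and 20 h all 3 probe sets have bars above 0 in every panel, and at 2 h the type B bars from sham are near 0 while the type A bar of the first step is 0.91.

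Across the 9 conditions, log2 signals of Plet1 on type A correlated with 1395887_at at r = 0.83 (Spearman's rho 0.90) and with 1397729_x_at at r = 0.81 (rho 0.87). Without the condition sham at 2 h (n = 8) both were 0.94. The points share the lung conditions of the design, so these values carry no p. The first Plet1 step at 2 h was larger on type A than on 1397729_x_at, the brighter type B probe set, by 0.89. Among the 1417 genes tested on both types the median size of that difference was 0.17, and 24 genes (1.69%) had a larger one. At 6 h the Plet1 difference was 0.04, exceeded by 91.4% of those genes, and at 20 h it was -0.24, exceeded in size by 44%. The second step at 2 h, which uses no sham array, was larger on type A by 0.36, exceeded in size by 26.7% of the genes. The first step of Plet1 at 2 h, which rests on the type B sham array that stood apart, thus differed between the types by more than in most genes, and the steps at 6 and 20 h by no more than in many genes.

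Slc26a4 was low in sham lungs and higher in every smoke array. Its probe set gave 82, 94.2 and 72.3 in the sham arrays at 2, 6 and 20 h, all below the 183.8 used as the filter, and no detection calls say whether its sham level is above background. At 300 µg TPM/l it gave 331.7, 258.1 and 185.5, and at 600 µg TPM/l 205.6, 309.7 and 513.5. All 6 smoke arrays were above all 3 sham arrays, but the 300 and 600 arrays overlapped. The first step was 1.19 ± 0.30 (2.28-fold) and the second 0.30 ± 0.92 (1.23-fold), making 1.49 ± 0.64 in all (2.81-fold). These folds depend on the dim sham signals: with 4 times the pseudocount the first step was 0.69 and the total 0.90.

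The first step of Slc26a4 was upward at each time, at 1.53, 1.10 and 0.95 after 2, 6 and 20 h. The second step ran from -0.58 at 2 h over 0.22 at 6 h to 1.26 at 20 h, a spread larger than its mean. Without the 20 h arrays the mean second step was -0.18, and without the 600 array at 20 h alone it was -0.12. First minus second step was 0.89 with a standard error of 0.46 and an SD over times of 1.21. It was 0.28 without the 300 array at 2 h and 1.49 without the 300 array at 20 h.

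The exposures differed in how Slc26a4 stood along recovery. At 300 µg TPM/l the 20 h array was lower than the 2 h array by a log2 change of -0.70 (0.62-fold), with 6 h between them. At 600 µg TPM/l the 20 h array was higher by 1.14 (2.20-fold), again with 6 h between, and the sham arrays differed by -0.11. This order, downward at 300 and upward at 600, was found in 2.14% of probe sets tested on type A and 2.23% on type B, and 1397729_x_at of Plet1 met it too. The order was picked after the values were seen, and with 1 array per condition the difference between the exposures could not be tested.

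**Figure D2:**
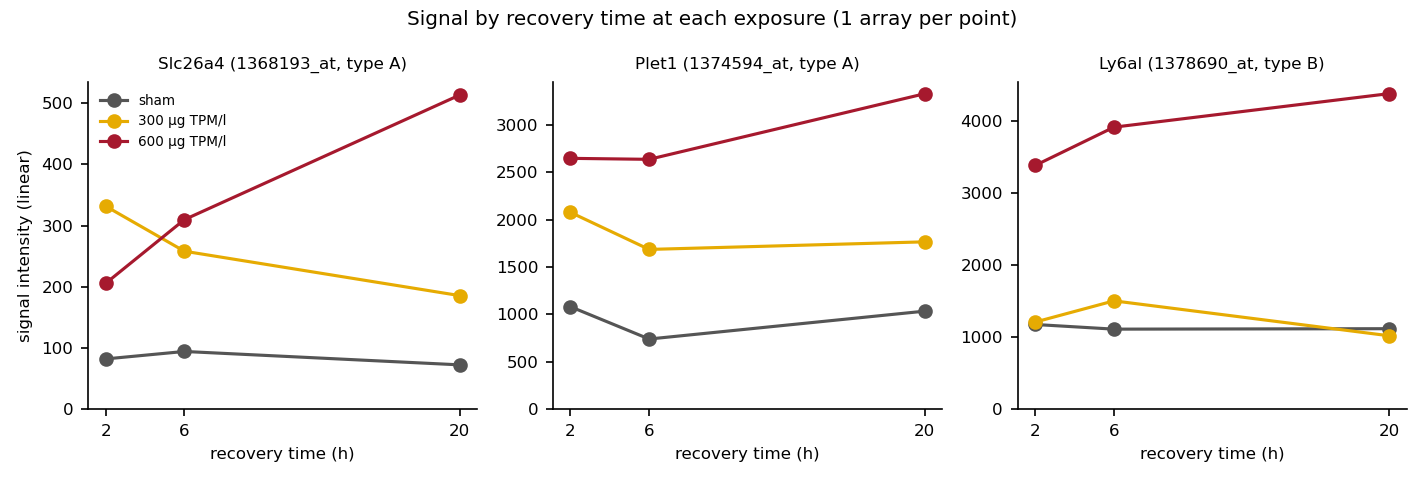
Linear signal intensity by recovery time (h) for Slc26a4 and Plet1 on type A and Ly6al on type B, with 1 line per exposure and 1 array per point. The Slc26a4 lines of 300 and 600 µg TPM/l cross between 2 and 6 h, whereas the 600 line is the highest at each time for Plet1 and Ly6al.

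Ly6al was close to sham at 300 µg TPM/l and about 3-fold higher at 600. Its probe set gave 1174.1, 1109.5 and 1115.8 in the sham arrays at 2, 6 and 20 h. At 300 µg TPM/l it gave 1208, 1502.2 and 1017.3, and at 600 µg TPM/l 3382.3, 3912.7 and 4378.6. The sham and 300 arrays overlapped, and each 600 array was more than 2-fold above every other array. The first step was 0.11 ± 0.28 (1.08-fold) and the second 1.62 ± 0.38 (3.07-fold), making 1.73 ± 0.22 in all (3.31-fold). Without the sham array at 2 h the first step was 0.19 and the total 1.81.

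The second step of Ly6al exceeded the first at each recovery time, with 1.45 against 0.04 at 2 h, 1.35 against 0.42 at 6 h and 2.05 against -0.13 at 20 h. First minus second step was -1.51 with a standard error of 0.25, and -1.43 without the doubtful sham array. Leaving out the 300 array at 6 h turned the mean first step to -0.03. Ly6al was the only 1 of the 9737 probe sets tested on type B (0.0103%) with every 600 array at least 2-fold above every sham and 300 array. The smallest gap was 1.14 on the log2 scale, and the criterion was set after the values were seen.

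A probe set with a like profile was present on type A. It is 1388273_at, which the annotation assigns to 2 symbols of the LY6 family, so it is given by its identifier and was chosen after its values were seen. It gave 120.6, 152.4 and 149.5 in the sham arrays at 2, 6 and 20 h, 105.3, 174.1 and 123.8 at 300, and 320.4, 409.2 and 384.2 at 600 µg TPM/l. Its mean first step was -0.06 and its second 1.20, and the 3 arrays at 600 lay above all others. All sham and 300 signals of 1388273_at were below the type A filter, which it passed only through the 600 arrays. Its steps thus rest on dim signals and are a description. Probe sets of near-identical LY6 genes can share transcripts, which these data do not separate.

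**Figure D3:**
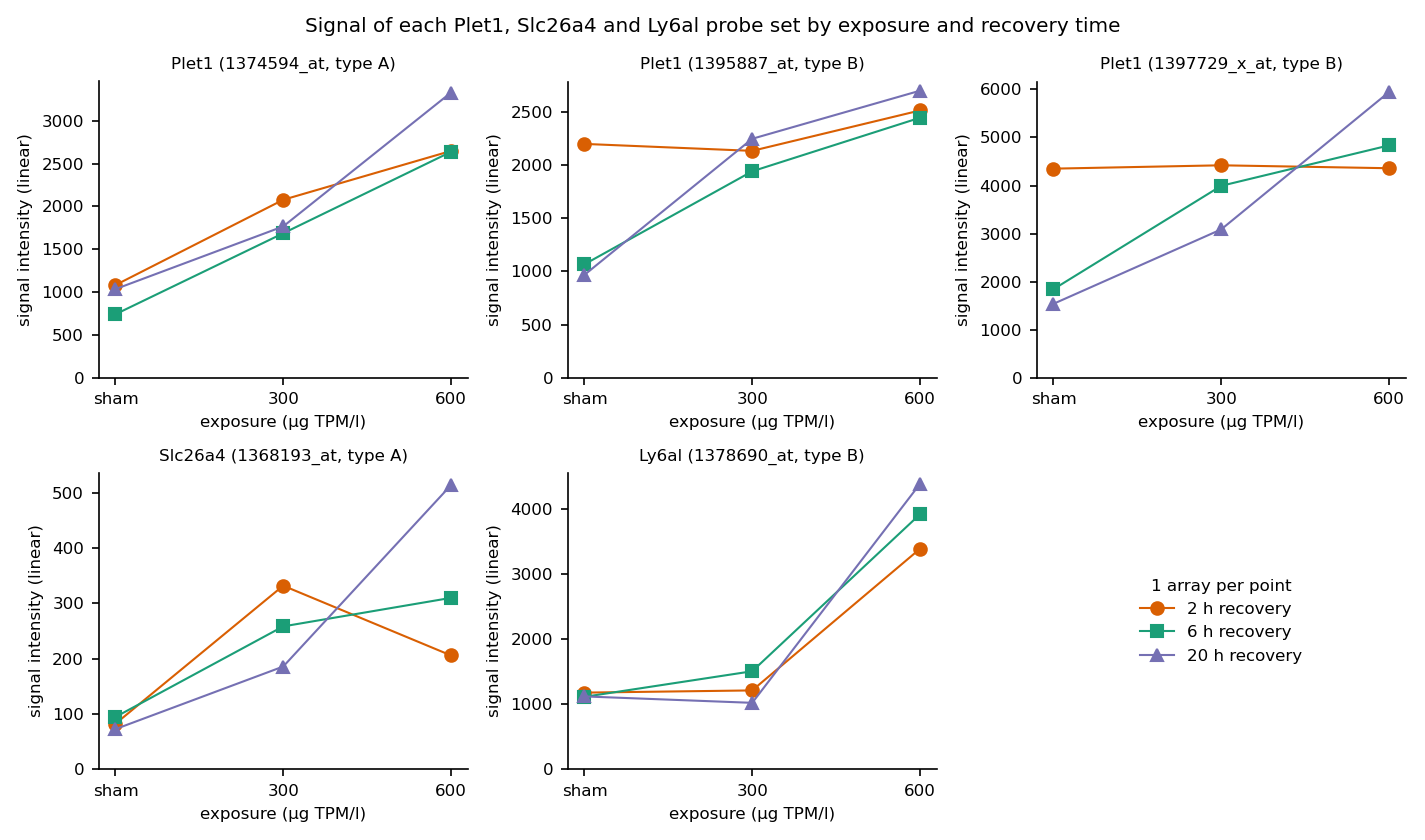
Linear signal intensity of each probe set against exposure (µg TPM/l), 1 line per recovery time and 1 array per point. Plet1 is higher at each exposure on type A, Slc26a4 separates sham from smoke only, and Ly6al separates 600 µg TPM/l from the rest. On type B the Plet1 sham array at 2 h lies near the 300 arrays.

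Set side by side, the first step made up 59.9% of the total log2 change for Plet1 on type A, 70.7% and 63.9% for its type B probe sets, 79.8% for Slc26a4 and 6.42% for Ly6al. Without the type B sham array at 2 h the type B shares were 78.9% and 74.3% for Plet1 and 10.5% for Ly6al, and with 4 times the pseudocount that of Slc26a4 was 75.9%. The model across all probe sets (limma, Benjamini-Hochberg adjusted p under 0.05 over 19638 probe sets) called 84 (0.428%) higher and 17 (0.0866%) lower in 600 against sham, 101 in all, 43 to 95 with 1 condition left out and 124 without the type B sham array at 2 h alone. Of these 84, 68 had a larger first than second step, with a median share of the first step of 65.5% and a range from -5.48% to 106%. Of the 84, 2 had a lower share than Ly6al and 7 a higher one than Slc26a4. The lowest share was that of 1388273_at, the LY6 probe set above that passed the filter only through the 600 arrays. As the 3 genes were chosen by their exposure differences, these places are a description and no support. That of Slc26a4 also rests on sham signals below the filter. In the separate steps, 8 (0.0407%) were called higher and 1 (0.00509%) lower from sham to 300, and 4 (0.0204%) higher and 0 lower from 300 to 600, where 1 to 4 were called with 1 condition left out. Calls from 300 to 600 included Arg1 (arginase of alternatively activated macrophages) and Rab15, a small GTPase of endosomal traffic. They also included 1388273_at, whose call is a description because only the 600 arrays brought it past the filter. The 3 genes were chosen on these contrasts, so no call of theirs is given.

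In all arrays, the 300 arrays lay wholly above the sham arrays for 5.88% of probe sets on type A and 2.34% on type B, as they did for 1374594_at and Slc26a4. The 600 arrays lay wholly above the 300 arrays for 4.1% and 4.94%, as for 1374594_at, 1395887_at and Ly6al. They lay wholly above the sham arrays for 7.84% and 6.11%, as for all 5 probe sets, though in 1397729_x_at only by 4359.8 against 4351. Both steps were upward at all 3 times for 0.668% on type B, where neither Plet1 probe set met it.

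**Figure D4:**
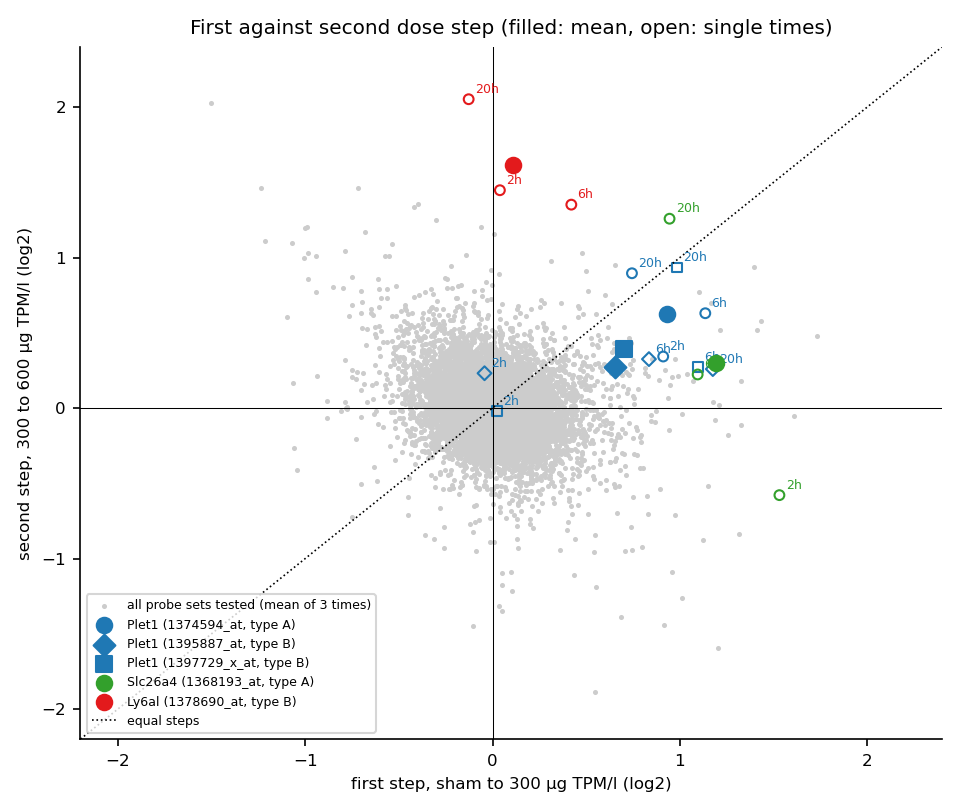
First step (sham to 300) against second step (300 to 600) in log2 units, with the mean over 3 times as filled symbols, single times as open symbols, and all tested probe sets in grey (Cyp1a1, at 3.45 on the first axis, lies outside the frame). Ly6al lies near 0 on the first axis and at 1.62 on the second, the mean points of Plet1 and Slc26a4 lie below the line of equal steps, and the Slc26a4 points at single times are the most scattered.

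Recovery time did not choose the genes and could be tested over the 3 exposures. None of the 5 probe sets passed the threshold in any recovery contrast. Between 6 and 2 h, where 3 probe sets (0.0153%) were called in all, limma's adjusted p was 0.435 for Plet1 on type A (log2 change -0.27), 0.918 for Slc26a4 (0.10) and 0.754 for Ly6al (0.14). Between 20 and 2 h, with 10 calls (0.0509%), the adjusted p was 0.981 for Plet1 on type A (0.01), 0.916 for Slc26a4 (0.11) and 0.974 for Ly6al (0.02). Between 20 and 6 h limma called 0 probe sets (0%), with 881 at an unadjusted p under 0.05, and the adjusted p was 0.9998 for all 5. For the type B Plet1 probe sets the adjusted p was 0.538 and 0.626 (6 against 2 h) and 0.601 and 0.514 (20 against 2 h). Without the type B sham array at 2 h these were 0.969 and 0.980 and then 0.962 and 0.952, and for Ly6al 0.804 and 0.917. These values do not show that the levels were alike at the 3 times. The averages over exposures also hold the opposite courses of Slc26a4 at 300 and 600 µg TPM/l.

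Genes around the 3 were taken from lists of pathways and families, each through its brightest tested probe set and without the 3 genes themselves. Over all 10165 genes the median change in 600 against sham was -0.0043 on the log2 scale. Of all 19638 probe sets tested, 0.428% were called higher and 0.0866% lower. The lists were chosen with earlier results of these data known, so the counts below are descriptions. Of 20 measured genes of airway ion and fluid transport, 1 rose and 0 fell, with a median of 0.05. The one that rose was Atp1b1, a subunit of the sodium pump, by 0.60 (SE 0.09, adjusted p = 0.0212, limma), a call lost in 7 of 19 alternative settings. Of the SLC26 family 1 other gene was measured, Slc26a6, an apical chloride and bicarbonate exchanger, at 0.18 (adjusted p = 0.656). Cftr, the chloride channel that works beside pendrin in airway epithelium and was picked after its values were seen, had 0.64 (adjusted p = 0.254), with 337.3 to 431.7 in sham and 512.6 to 724.2 at 600.

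Among 10 measured genes of the LY6 and uPAR family, 2 rose and 0 fell, with a median of 0.04. Ly6i rose by 0.71 (SE 0.10, adjusted p = 0.0197), from 3878.7 to 4544.8 in sham over 4369.9 to 5464.1 at 300 to 6236.3 to 7463.8 at 600, and its first step was 0.28 and its second 0.43. Plaur, the urokinase receptor, rose by 0.96 (SE 0.16, adjusted p = 0.0321) from a dim sham level of 72.8 to 123.5, mostly in the first step (0.73). Their calls were lost in 7 of 19 and 8 of 18 alternative settings. Plaur passed the filter only through smoke arrays, so its call is a description. Neither Ly6i nor Plaur was called by limma in the second step alone, with an adjusted p of 0.801 and 0.997. The difference from Ly6al was not tested. Of 19 genes of GPI anchor synthesis, 0 were called in limma, and the 2 of smallest p were Pigo (0.21, adjusted p = 0.609) and Pigu (-0.25, adjusted p = 0.664), which build the anchor and attach it to proteins.

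Of 31 genes of epithelial defence driven by IL-17 and NF-kB, 7 rose and 0 fell, with a median of 0.31. They included the neutrophil protein S100a9 (2.33), the siderophore binder Lcn2 (1.93), complement C3 (1.20), the neutrophil chemokine Cxcl2 (1.17), mitochondrial Sod2 (0.97) and the IgA transporter Pigr (0.37), with adjusted p from 0.000159 for C3 to 0.0307 for Pigr. The calls of Cxcl2 and Pigr were lost in 7 of 18 and 10 of 19 alternative settings. Cxcl2 gave 63.2 to 83.5 in sham and passed the filter only through smoke arrays, so its call is a description. The first step was the larger in these 6, whereas the chemokine Cxcl1, which also rose (1.33, adjusted p = 0.0328), had 0.64 and then 0.69. C3 moved by 0.73 and then 0.47, and Lcn2 by 1.41 and then 0.52. Nos2 was lower by -1.47, just short of the threshold (limma's adjusted p = 0.0506, and 0.0484 without the type B sham array at 2 h). It gave 169.5 to 232.3 in sham and 35 to 47.5 at 600, where all its signals were below the filter. Nos2 was picked after its values were seen. Of 21 type 2 and mucous genes, 2 rose and 0 fell, with a median of 0.12. These were the acidic chitinase Chia by 2.21 (SE 0.09, adjusted p = 9.41e-06), first step 1.73 and second 0.48, and Arg1 by 1.29 (SE 0.09, adjusted p = 0.000271), first step 0.51 and second 0.78. Chi3l1 on type B had 0.66 and was not called (limma's adjusted p = 0.0725). Without the type B sham array at 2 h its adjusted p was 0.0376, so the count depends on that array. Of 38 genes of epithelial progenitors and repair, 2 rose and 0 fell, with a median of 0.05: the lectin Lgals3 by 0.74 (SE 0.08, adjusted p = 0.0034) and Plaur.

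Cell type markers moved with exposure beside the 3 genes. Of 9 macrophage markers 4 rose at 600 against sham and 0 fell: the lysosomal protease Ctsd (0.92), the lysosomal glycoprotein Cd68 (1.17), Gpnmb (1.30) and the protease Ctsk (1.73), with limma's adjusted p from 0.000271 for Ctsd to 0.00316 for Ctsk. Ctsk gave 46.7 to 110.1 in sham and passed the filter only through smoke arrays, so its call is a description. The summed signals below are of all tested markers of a list. The summed macrophage signal on type A (6 probe sets) was 27429.9 to 30488.3 in sham, 35603.4 to 37751.1 at 300 and 38009.1 to 43243.6 at 600 µg TPM/l. Of 4 neutrophil markers 1 rose (S100a9), and their sum on type A (3 probe sets) was 1681.7 to 2526.4, 3387.3 to 4225.2 and 4161.2 to 8306.6. On type A both sums were separated between sham and 300, and the macrophage sum also between 300 and 600. Within the neutrophil sum, S100a9 gave 694.7 to 1033.4 in sham and 2976.4 to 6636.4 at 600. S100a8 overlapped, at 194.2 to 613.5 and 375.2 to 908.3, and Fcgr3a differed by 0.04. The neutrophil markers Cxcr2, Camp, Np4, Defa5 and Mmp8 were below the filter. On type B the sham and 300 sums overlapped, at 4447.3 to 5753.9 and 4918.1 to 5747.2 for 3 macrophage probe sets and 398.1 to 561.7 and 507.2 to 807.7 for 1 neutrophil probe set. At 600 the macrophage sum on type B was 5829.9 to 6277.2, above all sham and 300 arrays, and the neutrophil signal 552.4 to 705.5. The 5 macrophage markers that were not called had 0.38 (Mrc1), 0.03 (Lyz2), -0.11 (Csf1r), -0.16 (Cd163) and -0.40 (Adgre1). The part of these cells in the signals of the 3 genes was not tested.

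Of 9 club cell markers 0 rose and 1 fell, the cytochrome Cyp4b1 by -0.65 (SE 0.07, adjusted p = 0.0020). No ciliated, alveolar, goblet, dendritic, T or B cell marker was called in limma. All 7 measured T cell markers were below sham at 600 with a median of -0.38, the smallest adjusted p being 0.163 for Cd3g. Their sum on type A (5 probe sets) was 2165.1 to 2463.8 in sham, 2027.7 to 2273.3 at 300 and 1597.9 to 1883.8 at 600, so the 600 arrays lay below all others. On type B (2 probe sets) it was 507.9 to 1065.7, 611.9 to 967.3 and 518.1 to 710.3. The part of these cells in the signal of Ly6al was not tested. The defining markers of some cells known for these genes were below the filter. These were Foxi1, Ascl3, Atp6v1b1 and Bsnd of ionocytes and intercalated cells, Krt5, Krt14 and Krt15 of basal cells, Muc5ac and Clca1 of goblet cells, and Tg, Tshr, Slc5a5 and Iyd of thyroid. Of the ionocyte markers 3 were tested and 0 called: Cftr (0.64), Stap1 (0.21) and Atp6v1c2 (-0.37). Cftr and Stap1, on type B, summed to 623.1 to 771.5 in sham, 602.3 to 776.6 at 300 and 935.1 to 1018.5 at 600. Atp6v1c2, on type A, gave 1772.9 to 2622.6, 1799.1 to 2045.6 and 1591.9 to 1672.3.

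The genes most like each member were found by Pearson's r over the 9 arrays of a type, as a description across arrays that share exposures and times. Closest to Plet1 on type A were Ctsk (r = 0.99), the endocytic adaptor Dab2 (0.98), Cmbl (0.98), Pdhx (0.97) and Cd68 (0.97), and 74 of 7303 genes had r above 0.9. Ctsk had a first step of 1.21 and a second of 0.52. On type B the genes closest to 1397729_x_at were Rassf4 (0.98), the copper transporter Slc31a2 (0.97), the chemokine Ccl6 (0.97), Dgat2 (0.96) and the phagocyte oxidase subunit Cybb (0.96), and 27 of 4277 genes exceeded 0.9. Without the sham array at 2 h these 5 ranged from 0.96 to 0.98.

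Closest to Slc26a4 were the peroxidase Prdx5 (r = 0.98), the protein folding enzyme P4hb (0.97), Gpnmb (0.96), Rassf4 (0.96) and Prodh2 (0.95), with 43 of 7303 genes above 0.9. P4hb changed little in size, by 0.24 from sham to 600, against 1.49 for Slc26a4. Closest to Ly6al on type B were the nucleoside kinase Dck (0.95), the noncoding RNA Snhg11 (0.95), Rita1 (0.94), Acot9 (0.93) and the sialyltransferase St3gal1 (0.92), with 11 of 4277 genes above 0.9, and without the sham array at 2 h these 5 ranged from 0.92 to 0.95. All 5 moved far less than Ly6al, with second steps of 0.14 to 0.38 against 1.62, and first steps of -0.05 to 0.05. Among the members, Slc26a4 and Plet1 on type A correlated at r = 0.89 (rho 0.80), Plet1 on type A and Ly6al at 0.80 (rho 0.78), and Slc26a4 and Ly6al at 0.67 (rho 0.73). Without the condition sham at 2 h these were 0.88, 0.79 and 0.65.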

How the data were processed

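The deposited signal intensities were made by the authors with MAS5, per the submitters' processing notes, with version, masks and detection calls not given in the sources used here. RNA was labelled with biotin, per the labels. Trimmed means (2% cut at each end) lay between 500.09 and 500.10, so the authors' scaling was kept, and median signals were 263.6 to 278.5 (A) and 315.3 to 338.7 (B). The number of arrays limits the precision.

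For each type, log2(signal + 50) was modelled on exposure and recovery time (limma 3.58.1, R 4.3.3, eBayes with an intensity trend, 4 residual degrees of freedom). Tests were two-sided, with Benjamini-Hochberg adjustment over 19638 probe sets (9901 on A, 9737 on B) that reached the 40th percentile of their type in 3 of 9 arrays. The 57 control probe sets of a type were dropped, and the 100 that both types carry were taken from A. No condition had a replicate, so p-values rest on the residual of this model. That residual mixes array noise with differences in exposure effect between recovery times. Probe sets had 1 symbol, several or none in 12789, 312 and 2822 cases on A and 7570, 100 and 7663 on B. The fit was tested on simulated data.

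The 3 genes and the gene lists were chosen with earlier results of these data known. Named genes were the members, the 5 genes most like each, and from each pathway list up to 6 past the threshold in 600 against sham, or else up to 2 of smallest p; of the marker lists, those past it were named. Cxcl1, Nos2, Chi3l1, Rab15 and the uncalled markers with values were added after their values were seen. Alternatives were other pseudocounts, scalings and filters, no trend, adjustment within types, and arrays left out.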

Additional observations from a re-analysis of the deposited data

Results flagged for a closer look

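Single steps ran against the other recovery times in 4 cases. Each rests on 1 array per condition, and the difference between times was not tested. Slc26a4 was lower at 600 than at 300 µg TPM/l at 2 h, with a second step of -0.579, while the steps at 6 and 20 h were upward. Ly6al had a first step of -0.127 at 20 h, where those at 2 and 6 h were above 0. On type B, the first Plet1 step of 1395887_at was -0.043 at 2 h and the second step of 1397729_x_at was -0.020 at 2 h, where the other times were above 0. The 1395887_at value uses the array labelled sham at 2 h that resembled the 300 array.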

How the results depend on the processing

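The dose steps of the 5 probe sets moved by less than their spread over recovery times in 218 of 225 alternative values. That spread is a wide measure for some steps. The second step of Slc26a4, with an SD of 0.92, ran from -0.178 to 0.656 and never counted as moved. The first step of Slc26a4 was 0.685 with 4 times the pseudocount (1.19 as reported) and 0.886 to 1.492 with 1 condition left out, and the second step of 1395887_at was 0.108 to 0.467. None of 272 recovery tests was called, and 22 changed sign. Without the type B sham array at 2 h, 1395887_at had 0.036 (20 against 2 h) and 1397729_x_at 0.038 (6 against 2 h), and Slc26a4 had -0.025 (20 against 6 h) with 0.25 times the pseudocount. With 1 condition left out, the change between 20 and 2 h ran from -0.133 to 0.127 for Plet1 on type A, from -0.519 to 0.036 for 1395887_at, from -0.306 to 0.416 for Slc26a4 and from -0.138 to 0.188 for Ly6al. That between 20 and 6 h ran from -0.063 to 0.327 for 1395887_at, from -0.448 to 0.168 for 1397729_x_at, from -0.410 to 0.308 for Slc26a4 and from -0.282 to 0.044 for Ly6al. That between 6 and 2 h ran from -0.783 to 0.038 for 1397729_x_at and from -0.251 to 0.409 for Slc26a4.

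Counts of calls moved more. From sham to 300, 9 calls became 18 without the 20 h arrays, 1 without a filter, 2 without the intensity trend, 29 with adjustment within each type, and 2 to 14 with 1 condition left out. From 300 to 600, 4 became 2, 2, 1 and 2 without the 20 h arrays, without a filter, with the 60th percentile filter and without the trend, and 1 to 4 with 1 condition left out (fewer without the 300 array at 2 or 20 h or any 600 array). For 600 against sham, 101 became 55 without the 20 h arrays, 35 without a filter, 54 without the trend, and 43 to 95 with 1 condition left out, lower by over 1.5 times without any single sham or 600 condition. Between 6 and 2 h, 3 became 6 with 4 times the pseudocount, 1 each without the type B sham array at 2 h, the filter or the trend, and 1 to 7 with 1 condition left out. Between 20 and 2 h, 10 became 24 with 4 times the pseudocount, 21 with median scaling, 28 with adjustment within each type, 1 without the trend, 0 each without that array or the filter, and 0 to 18 with 1 condition left out. Between 20 and 6 h, 0 became 0 to 4, the latter without sham at 20 h. The cause was not tested. Pigu had 0.017 in 600 against sham without the 20 h arrays. Calls of Atp1b1, Ly6i, Plaur, Cxcl2 and Pigr were lost with single sham or 600 conditions left out, whereas those of C3, Lcn2, Sod2, S100a9, Chia, Arg1, Lgals3, Cyp4b1, Ctsd, Cd68, Gpnmb and Ctsk held in every alternative that tested them. These alternatives for list genes and single steps were chosen after seeing the data. Sham signals below the filter limit the folds of Slc26a4, Ctsk, Cxcl2 and Plaur, which passed it only through smoke arrays. The same holds for 1388273_at, which passed it only through the 600 arrays.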
